A study of Homo sapiens with 12 samples.

Results

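This account follows 10 genes of the ETS family of transcription factors through the response of 2 human melanoma cell lines to vemurafenib, an inhibitor of mutant BRAF kinase. The genes were the PEA3 group (ETV1, ETV4, ETV5), ETS1 and ETS2, ELF1, the ternary complex factors ELK1, ELK3 and ELK4, and ETV6. Each was represented by the array probe set annotated with that symbol alone, the one with the highest mean over all arrays if there were several, and this gave values for 9 of the 10 genes among 18404 named genes. ETV6 had a probe set annotated with 2 genes and is therefore left out of the comparisons. The data were log2 expression values from 12 Affymetrix Human Gene 1.0 ST arrays of total RNA, with 3 arrays in each of 4 groups. Each line, A375 or A2058, had 1 group given DMSO, the solvent, and 1 group given the drug. All 12 samples are labelled BRAF (V600E), the allele that the drug is directed at. The labels give 1 µM vemurafenib over 72 h, refreshed at intervals of 24 h. They name only A375p cells in that text, which also stands on the A2058 samples. A375 and A2058 are established lines, and the labels do not say whether the 3 arrays of a group came from separate cultures, so the p-values measure the spread between these arrays, which may be technical.

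ETS factors share a DNA-binding domain that recognises sites with a GGAA core, and many of them are end points of the RAS-RAF-MEK-ERK kinase cascade. In BRAF-mutant melanoma this cascade is constantly active and vemurafenib blocks it at BRAF. Transcription of the PEA3 genes is kept down by the repressor Capicua (CIC), which ERK signalling relieves, and their proteins are marked for destruction by the COP1 ubiquitin ligase. The ternary complex factors bind DNA beside serum response factor (SRF) and are phosphorylated directly by ERK.

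Arrays of a group correlated at r = 0.9939 to 0.9989 across the named genes, and the 2 lowest values both involve replicate 1 of A375 with vemurafenib. Melanocyte lineage markers were present in both lines, with SOX10 at a group mean of 9.21 to 9.53 and MITF at 8.35 to 10.50. The differentiation markers PMEL (4.99 and 5.07), MLANA (4.44 and 4.54) and TYR (4.57 and 4.57) lay near the lower end of the scale in both A375 groups, where all values started at 3.24, and MLANA was also low in untreated A2058 (4.75). The mean of the 10 measured melanocyte markers was 7.04 to 7.10 with DMSO and 7.34 to 7.41 with vemurafenib in A375, and 8.51 to 8.57 and 9.67 to 9.68 in A2058. The mean over the 5 epithelial markers was 4.90 to 5.11 on every array and that over the 5 endothelial markers 4.76 to 5.16. The 6 fibroblast markers averaged 5.09 to 5.18 with DMSO and 5.54 to 5.67 with vemurafenib in A375, and 5.48 to 5.49 and 5.41 to 5.47 in A2058. In A375, 3 of the 6 were called higher, with the proteoglycan LUM going from a mean of 4.22 to 6.37, while the collagens COL1A1, COL1A2 and COL3A1 were not called. The 5 blood and immune markers averaged 5.68 to 5.73 and 5.87 to 5.97 in A375 and 5.50 to 5.54 and 5.54 to 5.59 in A2058. Of these 5 only CD68, a lysosomal protein, was called in A375 (from a mean of 9.24 to 10.16). Whether these markers had a part in the values of the ETS genes was not tested.

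The first question was what vemurafenib did to these genes in each line. In A375, 8 of the 9 measured ETS genes were called, 5 lower and 3 higher, where limma called 37% of all genes, 19.3% lower and 17.7% higher (adjusted p under 0.05, Benjamini-Hochberg over 18404 genes). In A2058 also 8 of 9 were called, 6 lower and 2 higher, against 27.1% of all genes, 12.5% lower and 14.6% higher. All 9 ETS genes had a mean over the arrays above the median of all genes, and brighter genes were called more often. In a fit of only the 9202 genes above that median, 5581 were called in A375 and 4488 in A2058. That fit called 8 of the 9 ETS genes in each line. The DMSO and vemurafenib arrays did not overlap for 8 of the 9 genes in A375, 5 lower and 3 higher with the drug (43.6% of all genes, 22.6% lower and 21% higher). They did not overlap for 9 of 9 in A2058, 6 lower and 3 higher (40.6% of all genes, 18.7% lower and 21.9% higher). All 9 differences had the same sign in both lines, where 58.7% of all genes shared a sign. Both lines gave a call in the same direction for 7 of the 9: ETV1, ETV4, ETV5, ETS2 and ELK3 fell, and ETS1 and ELF1 rose. Of all genes 13.4% met this criterion, 6.85% lower and 6.52% higher. The median absolute log2 difference of the 9 genes was 1.21 in A375 and 0.41 in A2058, beside 0.10 and 0.077 over all genes. Values below are listed in the order of replicates 1, 2 and 3, and differences are given ± SE of the limma fit with 3 arrays per group. In RNA from whole cultures, fewer cells expressing a gene and less RNA per cell cannot be told apart.

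**Figure D1:**
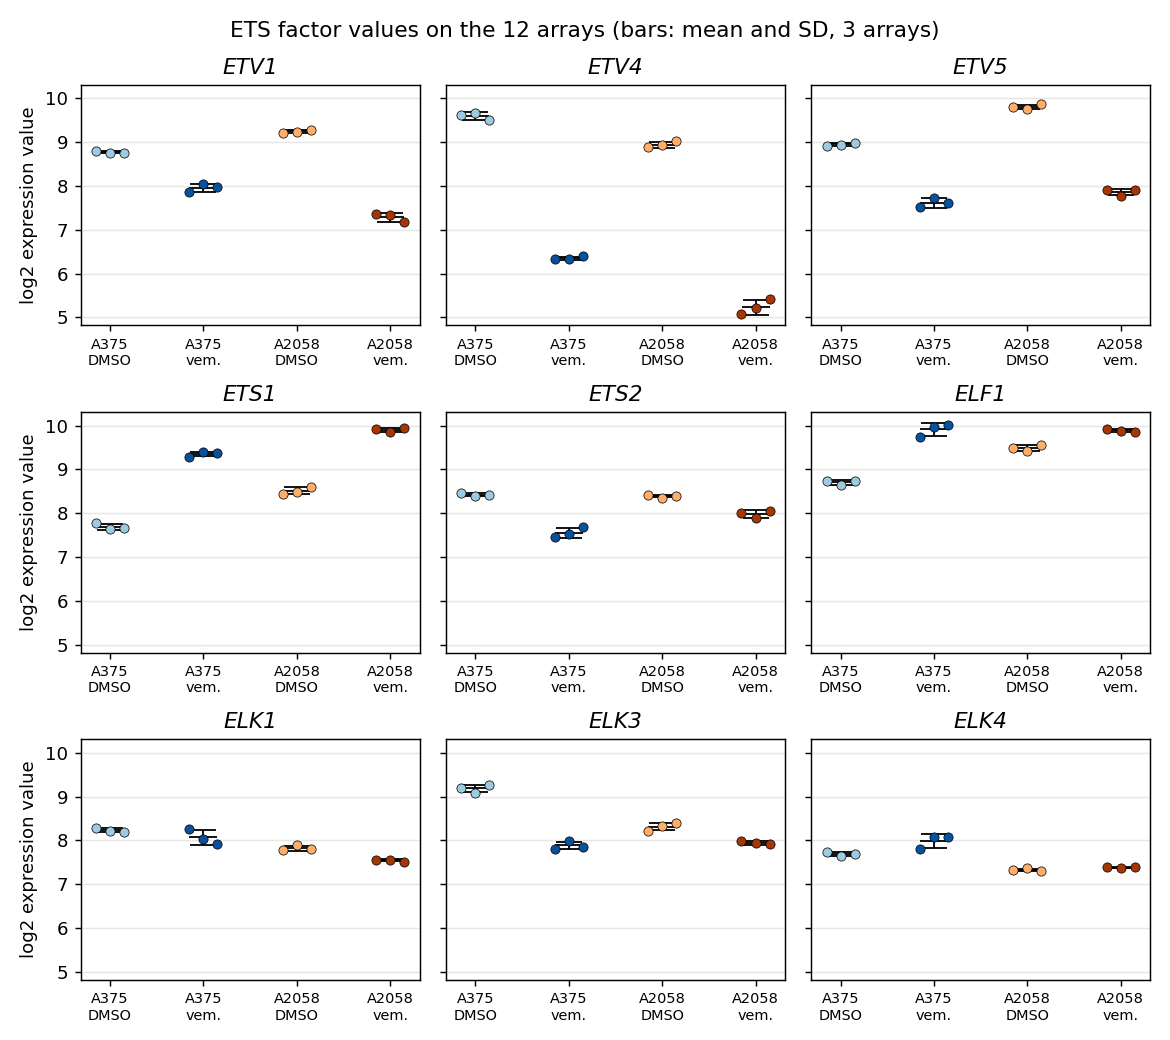
Log2 expression value (vertical axis) of the 9 measured ETS genes on the 12 arrays, 1 panel per gene, with points for single arrays and bars for the mean and SD of 3 arrays. ETV4 falls from between 8.89 and 9.67 with DMSO to between 5.08 and 6.39 with vemurafenib, and ETS1 rises in both lines.

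All 3 PEA3 genes fell in both lines. ETV4, which drives invasion programmes in several carcinomas, read 9.63, 9.67 and 9.51 with DMSO and 6.33, 6.34 and 6.39 with vemurafenib in A375. In A2058 the ETV4 values were 8.89, 8.93 and 9.02 with DMSO and 5.08, 5.22 and 5.41 with the drug. All 6 treated arrays thus lay far below all 6 DMSO arrays, with no value between 6.39 and 8.89. The difference was -3.25 ± 0.075 in A375 (9.50-fold lower, adjusted p = 3.11e-12) and -3.71 ± 0.075 in A2058 (13.1-fold lower, adjusted p = 4.05e-12). Counted over 18404 genes, this was the 18th largest fall in A375 and the 3rd largest in A2058. The mean of the treated A2058 arrays, 5.24, was above that of 37% of all genes in that group and close to markers of other cell types such as COL1A2 (5.16) and CD14 (5.43). No detection call was used here, so whether ETV4 was above background there is not known, and its fold and place in A2058 rest on that low value.

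ETV5, which takes part in growth factor signalling in development, stood at 8.92, 8.95 and 8.99 in untreated A375 and at 7.51, 7.73 and 7.61 after vemurafenib. Its A2058 values were 9.79, 9.76 and 9.86 before and 7.90, 7.78 and 7.90 after. Again treated and untreated arrays were apart in each line, and the untreated A2058 arrays were the highest of the 12. ETV5 fell by 1.33 ± 0.058 on the log2 scale in A375 (2.52-fold lower, adjusted p = 1.29e-09) and had a difference of -1.95 ± 0.058 in A2058 (3.85-fold lower, adjusted p = 1.15e-10).

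ETV1 is the remaining gene of the PEA3 group. It read 8.80, 8.77 and 8.76 with DMSO and 7.87, 8.04 and 7.98 with vemurafenib in A375, and 9.21, 9.24 and 9.29 against 7.36, 7.33 and 7.18 in A2058. The 4 groups did not overlap, with A2058 at both ends: its DMSO arrays were the highest and its treated arrays the lowest. The log2 difference was -0.81 ± 0.056 in A375 (1.76-fold lower, adjusted p = 1.08e-07) and -1.96 ± 0.056 in A2058 (3.89-fold lower, adjusted p = 7.33e-11).

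RefSeq's table for GRCh38.p14 holds start-site windows of 300 bases, 250 before to 50 after the start, for 7 of the 10 genes (ETV1, ETV6, ETS2, ELF1, ELK1, ELK3 and ELK4, with 16 windows in all). They were searched on both strands for the CIC octamers TGAATGAA, TGAATGGA, TCAATGAA and TCAATGGA, the ETS sequence CCGGAAGT, the CCGGAA it contains, and the AP-1 sequences TGAGTCA and TGACTCA. A CIC octamer stood in 1 window, at 1 of the 6 listed ETV1 starts, and CCGGAAGT in 1 window, that of ELK4. Both are shown because ETV1 is the PEA3 gene with windows in the table and ELK4 the member whose window holds the full ETS sequence. They give the bases before the start site, 5′ to 3′ on the gene's strand, with matched letters in capitals. In ETV1 (chr7:13991426-13991675, minus strand) CCGGAA lies at -136 to -131 and TGAATGGA at -125 to -118 from the start. In ELK4 (chr1:205632012-205632261, minus strand) CCGGAAGT lies at -22 to -15, and CCGGAA on the other strand, read here as TTCCGG, at -185 to -180.
ETV1: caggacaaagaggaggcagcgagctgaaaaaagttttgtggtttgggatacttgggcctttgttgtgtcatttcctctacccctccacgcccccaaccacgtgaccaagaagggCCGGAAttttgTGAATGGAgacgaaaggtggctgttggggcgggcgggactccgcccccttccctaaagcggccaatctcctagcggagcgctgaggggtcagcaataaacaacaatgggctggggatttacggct
ELK4: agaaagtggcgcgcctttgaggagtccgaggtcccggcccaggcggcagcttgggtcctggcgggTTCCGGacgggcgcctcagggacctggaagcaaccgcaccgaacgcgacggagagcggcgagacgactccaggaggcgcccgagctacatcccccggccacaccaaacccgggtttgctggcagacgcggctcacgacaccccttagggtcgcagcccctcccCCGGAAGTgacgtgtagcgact

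Of all 35116 windows in that table, 3.77% held a CIC octamer, 4.14% CCGGAAGT, 17.2% CCGGAA and 4.95% an AP-1 sequence. Besides the windows shown, 2 further ETV1 windows, which overlap each other, held CCGGAA, and no window of the 7 genes held an AP-1 sequence. A match is a description of the letters in these windows, and no binding was measured.

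ETS1 went the other way. This factor, the founder of the family and a partner of AP-1 at matrix protease genes, read 7.77, 7.65 and 7.66 with DMSO and 9.29, 9.39 and 9.37 with vemurafenib in A375. In A2058 it read 8.44, 8.50 and 8.60 with DMSO and 9.92, 9.86 and 9.94 with vemurafenib. The groups did not overlap, and treated A375 passed untreated A2058. ETS1 rose by 1.66 ± 0.053 in A375 (3.15-fold, adjusted p = 6.19e-11) and by 1.40 ± 0.053 in A2058 (2.63-fold, adjusted p = 9.11e-10), the 159th and 62nd largest rises of all genes.

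ETS2, its closest relative, fell instead. The A375 arrays gave 8.46, 8.40 and 8.41 with DMSO and 7.45, 7.53 and 7.69 with vemurafenib, and the A2058 arrays 8.42, 8.36 and 8.40 against 8.01, 7.88 and 8.05. Untreated arrays of both lines lay between 8.36 and 8.46 and all treated arrays below them. The change was -0.87 ± 0.061 in A375 (1.83-fold lower, adjusted p = 1.26e-07) and -0.41 ± 0.061 in A2058 (1.33-fold lower, adjusted p = 0.000197).

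ELF1, an activator that is broadly expressed and best known from lymphocytes, rose beside ETS1. It stood at 8.73, 8.65 and 8.74 with DMSO and 9.75, 9.98 and 10.02 with vemurafenib in A375, while A2058 went from 9.49, 9.43 and 9.56 to 9.92, 9.89 and 9.86. The treated arrays of the lines overlapped at the top, and the untreated A375 arrays were lowest. The rise was 1.21 ± 0.065 in A375 (2.31-fold, adjusted p = 9.79e-09) and 0.40 ± 0.065 in A2058 (1.32-fold, adjusted p = 0.000451).

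Of the 3 ternary complex factors, ELK3 was called lower in both lines, ELK1 lower in A2058 and ELK4 higher in A375. ELK3, also called NET, which represses serum response genes until ERK phosphorylates it, read 9.20, 9.09 and 9.26 in untreated and 7.81, 7.99 and 7.85 in treated A375. Its A2058 values were 8.22, 8.32 and 8.39 before and 7.99, 7.94 and 7.91 after vemurafenib. The treated arrays of both lines shared 1 range, from 7.81 to 7.99. ELK3 fell by 1.30 ± 0.062 in A375 (2.47-fold, adjusted p = 2.78e-09) and by 0.36 ± 0.062 in A2058 (1.29-fold, adjusted p = 0.000604).

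ELK1, the activator through which ERK switches on immediate early genes, changed little. In A375 it read 8.28, 8.22 and 8.20 with DMSO and 8.26, 8.03 and 7.91 with vemurafenib, so replicate 1 of the treated group lay among the untreated arrays. The difference of -0.17 ± 0.072 was not called (95% interval -0.32 to -0.0090, adjusted p = 0.0971). With this array left out, it was -0.26 (adjusted p = 0.000678). In A2058 the 3 values went from 7.77, 7.88 and 7.81 to 7.56, 7.55 and 7.52, and ELK1 fell by 0.28 ± 0.072 (adjusted p = 0.0107).

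ELK4, also known as SAP1, an SRF partner like ELK1, rose slightly in A375. Its values there were 7.73, 7.65 and 7.68 with DMSO and 7.81, 8.07 and 8.08 with vemurafenib, a difference of 0.30 ± 0.063 (adjusted p = 0.00206). In A2058 they were 7.33, 7.36 and 7.31 against 7.39, 7.36 and 7.39. The treated A2058 arrays lay just above the untreated ones, without overlap, and the difference of 0.048 ± 0.063 was not called (95% interval -0.089 to 0.19, adjusted p = 0.709).

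**Figure D2:**
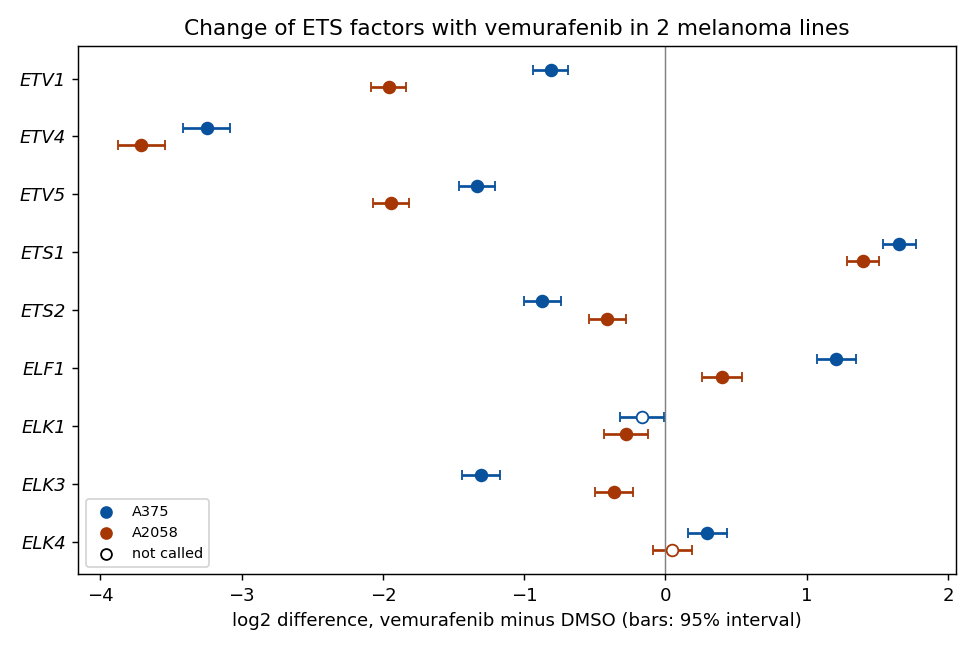
Log2 difference between vemurafenib and DMSO (horizontal axis) for the 9 measured ETS genes in A375 and A2058, with 95% intervals from the limma fit and open circles for differences that were not called. The PEA3 genes fall further in A2058, while ETS2, ELK3 and ELF1 move further in A375.

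The second question was whether the lines differed in these responses. The difference of the responses (A375 minus A2058, 1 interaction contrast per gene) was called for 7 of the 9 genes, 5 positive and 2 negative, against 29.5% of all genes, 13.1% positive and 16.4% negative. Fitted alone, the 9202 brighter genes gave 4570 calls, among them 8 of the 9 ETS genes. The 3 PEA3 genes fell further in A2058. The gap was 1.15 ± 0.079 for ETV1 (adjusted p = 2.24e-07), 0.61 ± 0.082 for ETV5 (adjusted p = 8.98e-05) and 0.46 ± 0.11 for ETV4 (adjusted p = 0.00512). The response of 4 others was larger in A375: ELK3 fell further by 0.94 ± 0.087 (adjusted p = 3.44e-06), ETS2 fell further by 0.46 ± 0.086 (adjusted p = 0.00119), and ELF1 rose further by 0.81 ± 0.092 (adjusted p = 2.01e-05). ETS1 rose further by 0.26 ± 0.074 (adjusted p = 0.0183), a call that did not survive leaving out A375 DMSO replicate 2 (0.24, adjusted p = 0.0514) and, separately, replicate 2 of treated A2058 (0.24, adjusted p = 0.0501). The gaps of ELK4 (0.25 ± 0.089, 95% interval 0.055 to 0.44, adjusted p = 0.0539) and ELK1 (0.11 ± 0.10, 95% interval -0.11 to 0.34, adjusted p = 0.507) were not called. Without A375 vemurafenib replicate 1 the ELK4 gap was 0.34 (adjusted p = 0.000251).

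The third question was how the lines compared at each condition. With DMSO, 8 of 9 ETS genes were called between the lines, 4 in each direction, against 46.4% of all genes, 23.9% higher and 22.5% lower in A375. The same 8 had arrays that did not overlap (56.8% of all genes, 28.5% higher and 28.3% lower). In the fit of the 9202 brighter genes, 6675 were called with DMSO, and again 8 of the 9 ETS genes. ELK3 was higher in A375 by 0.88 ± 0.062 (adjusted p = 9.13e-08), ETV4 by 0.66 ± 0.075 (adjusted p = 8.71e-06), ELK1 by 0.41 ± 0.072 (adjusted p = 0.000354) and ELK4 by 0.35 ± 0.063 (adjusted p = 0.000393). ETV5 was lower in A375 by a log2 difference of -0.85 ± 0.058 (adjusted p = 7.11e-08), ETS1 by -0.82 ± 0.053 (adjusted p = 4.16e-08), ELF1 by -0.79 ± 0.065 (adjusted p = 4.1e-07) and ETV1 by -0.47 ± 0.056 (adjusted p = 1.12e-05). ETS2 had overlapping arrays, and its difference of 0.035 ± 0.061 was not called (95% interval -0.098 to 0.17, adjusted p = 0.717). The 3 PEA3 genes thus did not share a direction between untreated lines.

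Under vemurafenib, 7 of 9 were called between the lines, 4 higher and 3 lower in A375, against 46.9% of all genes, 22.7% higher and 24.2% lower. The same 7 had arrays that did not overlap (51.2% of all genes, 24.7% higher and 26.5% lower). Of the 9202 brighter genes fitted alone 6658 were called, and 7 of the 9 ETS genes, a similar share. These contrasts share arrays with the contrasts above, so their values are set side by side. ETV1 passed from lower in A375 with DMSO to higher by 0.67 ± 0.056 with the drug (adjusted p = 4.06e-07). ETV4 was higher by 1.12 ± 0.075 (adjusted p = 5.59e-08), ELK4 by 0.60 ± 0.063 (adjusted p = 3.61e-06) and ELK1 by 0.52 ± 0.072 (adjusted p = 4.34e-05). ETV5 stayed lower in A375, at -0.24 ± 0.058 (adjusted p = 0.00366), as did ETS1, at -0.56 ± 0.053 (adjusted p = 1.41e-06). ETS2 was now lower in A375 (-0.42 ± 0.061, adjusted p = 6.17e-05). ELK3 and ELF1, which had differed with DMSO, had overlapping arrays: the differences were -0.063 ± 0.062 (95% interval -0.20 to 0.071, adjusted p = 0.473) and 0.024 ± 0.065 (95% interval -0.12 to 0.165, adjusted p = 0.823). The sign of the ELF1 value was not settled, since it was between -0.027 and 0.11 when 1 array was left out. The labels give no slide or scan date, so a batch that goes with the line cannot be told apart from the line.

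**Figure D3:**
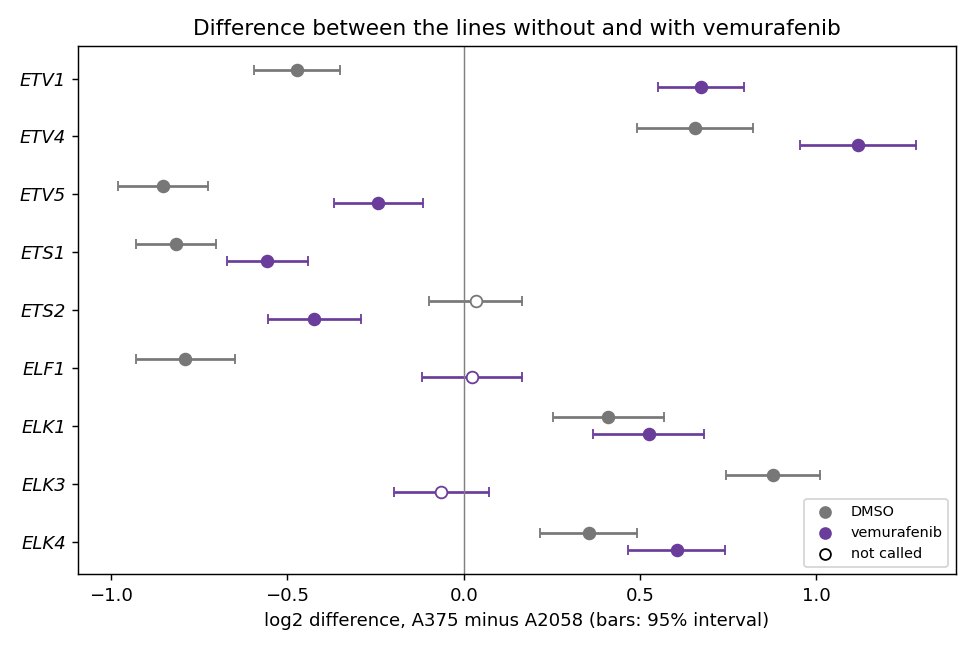
Log2 difference between A375 and A2058 (horizontal axis) for the 9 measured ETS genes with DMSO and with vemurafenib, with 95% intervals and open circles for differences that were not called. ETV1 lies on opposite sides of 0 in the 2 conditions, and ELF1 and ELK3 lie near 0 only with the drug.

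The remaining ETS family was measured through 18 other genes. In A375, 2 of 18 were called, FLI1 up and ELF4 down, where 37% of all genes were called, with a median log2 difference of 0.00070 beside 0.0042 over all genes. In A2058, 4 of 18 were called, ELF2 up and FLI1, EHF and ELF4 down, where 27.1% of all genes were called, with a median of 0.017 beside 0.0064. Many of the 18 read low in all groups, such as ERG (means of 4.23 to 4.32) and ELF5 (4.44 to 4.54), while others read higher. Array signals flatten near background, so the small counts do not show that the low genes were unchanged. FLI1, a relative of ERG with roles in blood and endothelium, had called changes of opposite sign: it rose by 0.33 ± 0.075 in A375 (adjusted p = 0.00348) and fell by 1.27 ± 0.075 in A2058 (adjusted p = 5.63e-08). The gap between these responses was 1.59 ± 0.11 (adjusted p = 1.63e-07). Its group means were 5.44 and 5.76 in A375 and 7.46 and 6.20 in A2058, DMSO first, so the lines differed by -2.03 ± 0.075 with DMSO (adjusted p = 2.44e-10) and by -0.43 ± 0.075 with vemurafenib (adjusted p = 0.000309). The A375 means were near those of the immune marker CD14 there (5.32 and 5.41). Whether FLI1 was above background in A375 is not known, and its rise there rests on these low values. The mean of the 5 endothelial markers was 5.09 to 5.16 with DMSO and 5.07 to 5.14 with the drug in A375, where none was called. In A2058 it was 4.85 to 4.93 with DMSO and 4.76 to 4.79 with the drug, without overlap, and 1 of the 5, the receptor KDR, fell (-0.64 ± 0.076, adjusted p = 3.21e-05). Their part in the FLI1 values was not tested.

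Other changes in this group were small. ELF4, the MEF factor of lymphocytes, changed by -0.25 ± 0.076 in A375 (adjusted p = 0.0197) and by -0.29 ± 0.076 in A2058 (adjusted p = 0.0128). The A375 call was lost without A375 DMSO replicate 1 (-0.22, adjusted p = 0.076) or 3 (-0.22, 0.0761). The A2058 call was lost without A2058 DMSO replicate 2 (-0.26, 0.0501) or 3 (-0.24, 0.0583) or A2058 vemurafenib replicate 2 (-0.21, 0.0607). In A2058 the epithelial factor EHF fell by 0.45 ± 0.046 (adjusted p = 7.49e-06) from a low group mean of 4.71, and ELF2, close to ELF1, rose by 0.31 ± 0.073 (adjusted p = 0.00596). The gap of the responses was 0.36 ± 0.064 for EHF (adjusted p = 0.00091) and -0.48 ± 0.10 for ELF2 (adjusted p = 0.00337). Between the lines ELF3, an epithelial factor, was higher in A375 (0.62 ± 0.050 with DMSO, adjusted p = 3.38e-07, and 0.70 ± 0.050 with vemurafenib, adjusted p = 9.49e-08). ELF4 was lower there (-0.71 ± 0.076, adjusted p = 4.62e-06, and -0.68 ± 0.076, adjusted p = 7.27e-06), EHF was lower with DMSO (-0.30 ± 0.046, adjusted p = 0.000101) and ELF2 with vemurafenib (-0.41 ± 0.073, adjusted p = 0.00039).

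Among proteins that control ETS factors or work with them, 15 of 19 listed genes were measured. In A375, 5 rose and 6 fell (median -0.044), where 17.7% of all genes rose and 19.3% fell. In A2058, 5 rose and 4 fell (median 0.067), where 14.6% of all genes rose and 12.5% fell. Most of the 15 were among the brighter genes. Fitted alone, the 9202 brighter genes gave 5581 calls in A375 and 4488 in A2058. CIC, the repressor of the PEA3 genes, had a log2 difference of 0.57 ± 0.080 in A2058 (adjusted p = 0.000137) and 0.22 ± 0.080 in A375 (adjusted p = 0.0441). In A375 the gene missed the threshold (adjusted p from 0.0563 to 0.129) on leaving out any untreated A375 array, replicate 1 or 3 of treated A375, or replicate 1 of either A2058 group. ATXN1, which binds CIC, fell in A375 (-0.83 ± 0.061, adjusted p = 2.05e-07). In A2058 it had -0.18 ± 0.061 (adjusted p = 0.0499) and missed the threshold (adjusted p from 0.0518 to 0.182) on leaving out any A2058 array, replicate 1 or 2 of untreated A375, or replicate 2 or 3 of treated A375. The gap of the ATXN1 responses was -0.66 ± 0.086 (adjusted p = 7.22e-05).

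COP1, the ligase that marks PEA3 proteins for destruction, was not called in A375 (-0.036 ± 0.074, 95% interval -0.20 to 0.13) or A2058 (0.043 ± 0.074, 95% interval -0.12 to 0.20). Of its partners in A375, the scaffold CUL4A (-0.44 ± 0.050, adjusted p = 1.09e-05) and the adaptor DDB1 (-0.29 ± 0.036, adjusted p = 2.6e-05) fell. DET1, which joins COP1 to the complex, rose there (0.36 ± 0.095, adjusted p = 0.00874). In A2058 CUL4A was also called lower (-0.17 ± 0.050, adjusted p = 0.0193), a call lost in 6 of 20 alternative fits. DDB1 (-0.089 ± 0.036, adjusted p = 0.0925) and DET1 (0.074 ± 0.095, adjusted p = 0.703) were not called in A2058. MAPK3, which encodes ERK1, fell in A375 (-0.79 ± 0.040, adjusted p = 5.19e-09). In A2058 it was called slightly higher (0.12 ± 0.040, adjusted p = 0.0385), a call lost in 9 of 20 alternative fits. The gap of the MAPK3 responses was -0.91 ± 0.056 (adjusted p = 8.55e-08). GABPB2, a partner of the ETS factor GABPA, rose in A375 (0.44 ± 0.063, adjusted p = 9.1e-05; gap 0.50 ± 0.089, adjusted p = 0.000806). Its paralog GABPB1 fell in A2058 (-0.36 ± 0.087, adjusted p = 0.0072) and in A375 (-0.31 ± 0.087, adjusted p = 0.0121). Also in A2058, MED23, a Mediator subunit that receives ELK1, rose (0.37 ± 0.061, adjusted p = 0.000519) and SRF, the partner of the ELK proteins, fell (-0.31 ± 0.041, adjusted p = 8.8e-05). DAXX, a corepressor, had 0.13 ± 0.043 in A2058 (adjusted p = 0.036) and a gap of -0.35 ± 0.061 (adjusted p = 0.000676), but neither was called when its probe sets were averaged (adjusted p = 0.628 and 0.885). The A2058 value also missed the threshold (adjusted p from 0.0502 to 0.142) on leaving out any untreated A375 array, replicate 1 or 2 of untreated A2058, or replicate 2 or 3 of treated A2058.

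Between the lines, 8 of the 15 regulators were called with DMSO, 3 higher and 5 lower in A375, where 46.4% of all genes were. With vemurafenib 13 of 15 were called, 5 higher and 8 lower, where 46.9% of all genes were. Fitted alone, the 9202 brighter genes gave 6675 calls with DMSO and 6658 with vemurafenib. With DMSO, A375 had more MAPK3 (0.46 ± 0.040, adjusted p = 6.89e-07), DDB1, the adaptor of the ligase complex (0.36 ± 0.036, adjusted p = 2.22e-06), and CUL4A (0.34 ± 0.050, adjusted p = 7.96e-05). It had less GABPB1 (-0.36 ± 0.087, adjusted p = 0.00399) and less of the SRF coactivator MRTFB (-0.34 ± 0.052, adjusted p = 0.00011). EP300, an acetyltransferase coactivator, had -0.20 ± 0.062 (adjusted p = 0.0157), which missed the threshold without A375 DMSO replicate 3 (0.0529), A2058 DMSO replicate 1 (0.0709) or A2058 DMSO replicate 3 (0.0573). With vemurafenib, MAPK3 was lower in A375 instead (-0.45 ± 0.040, adjusted p = 6.83e-07), as were ATXN1 (-0.83 ± 0.061, adjusted p = 1.34e-07) and DAXX (-0.54 ± 0.043, adjusted p = 2.92e-07). DET1 (0.43 ± 0.095, adjusted p = 0.00195), GABPB2 (0.39 ± 0.063, adjusted p = 0.000174) and SRF (0.26 ± 0.041, adjusted p = 0.000167) were higher there. The gap of the SRF responses was 0.20 ± 0.058 (adjusted p = 0.0202) and missed the threshold (adjusted p from 0.0511 to 0.0577) on leaving out replicate 1 or 2 of untreated A375, replicate 2 of untreated A2058 or replicate 1 of treated A2058.

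**Figure D4:**
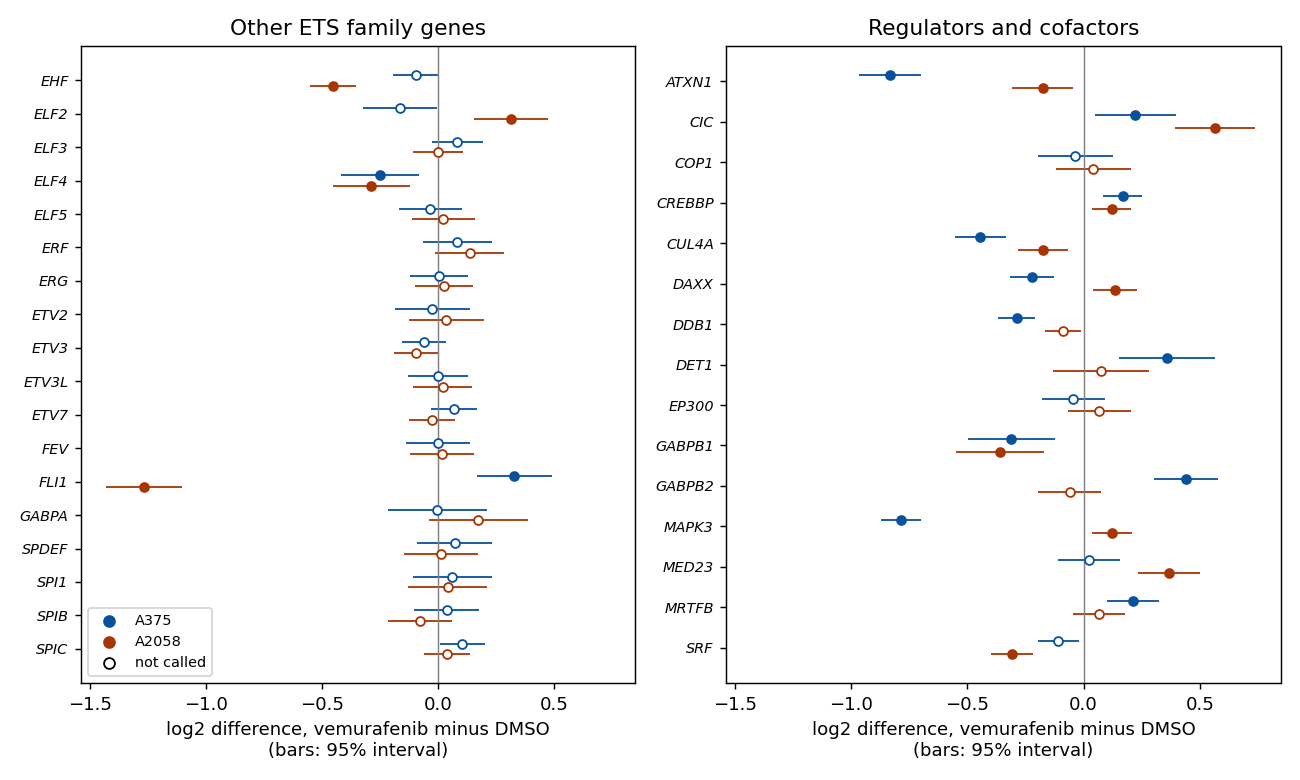
Log2 difference between vemurafenib and DMSO (horizontal axis) in A375 and A2058 for the 18 other ETS genes and for 15 regulators and cofactors, with 95% intervals and open circles for differences that were not called. FLI1 moves in opposite directions in the 2 lines, with low values in A375, and ATXN1 and MAPK3 fall in A375.

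The downstream readout was a list of 8 genes that report ERK pathway output, a published score without its 2 members ETV4 and ETV5. All 8 were called lower in A375, where 19.3% of all genes were, and all 8 in A2058, where 12.5% were. Their median was -1.01 in A375 and -1.75 in A2058, beside 0.0042 and 0.0064 over all genes. The list was chosen with earlier results of these arrays known and is no independent evidence of direction. SPRY4, a feedback inhibitor of receptor signalling, led both lines (-3.91 ± 0.060, adjusted p = 9.97e-14, and -3.0 ± 0.060, adjusted p = 4.05e-12), followed by cyclin D1, CCND1, in A375 (-1.93 ± 0.057, adjusted p = 3.22e-11) and the ERK phosphatase DUSP6 in A2058 (-2.63 ± 0.055, adjusted p = 4.55e-12).

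Genes whose values followed a PEA3 gene most closely were found by Pearson's r over the 12 arrays, which share 4 groups, so r is a description. Likeness in pattern was the basis of the choice, so the shared directions below are not findings. ETV1 was followed by AXL, a receptor tyrosine kinase (r = 0.9914), ERO1B, an oxidase of the endoplasmic reticulum (r = 0.990), and MTHFD2, a mitochondrial folate enzyme (r = 0.9861). The drug differences in A375 and A2058 were -0.67 ± 0.045 and -1.36 ± 0.045 for AXL, -0.87 ± 0.085 and -2.60 ± 0.085 for ERO1B, and -0.45 ± 0.057 and -1.09 ± 0.057 for MTHFD2. ETV4 was followed by SFRP1, a secreted WNT antagonist (r = 0.9972), the glucose transporter SLC2A1 (r = 0.9941) and the phosphatase PTPN14 (r = 0.9927). SFRP1 had -2.17 ± 0.051 in A375 and -2.19 ± 0.051 in A2058, and the gap between its responses was not called (95% interval -0.14 to 0.18, adjusted p = 0.918). ETV5 was followed by UXS1, which makes UDP-xylose for proteoglycans (r = 0.9962), RGS5, a regulator of G protein signalling (r = 0.9961), and the glycolytic regulator PFKFB3 (r = 0.9866). RGS5 had the largest changes of these 9 genes, -2.42 ± 0.093 in A375 and -3.85 ± 0.093 in A2058.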

How the data were processed

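The 12 samples of total RNA were each hybridised to 1 Affymetrix array. The values deposited by the authors are on a log2 scale, 1 per probe set (32321) and array. The scale was read from the values, which ran from 3.24 to 13.08, and the values were used without further scaling. The submitters' processing notes name R 3.0.1 and affy; how background was corrected is not given in the sources used here, nor is the summary method. Array signals flatten near background, which understates differences of weakly detected genes. Precision is limited by the number of arrays.

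Names came from the platform annotation, where 19158 probe sets had 1 symbol, 1388 more than 1 and 11775 no symbol. Of the single symbols 19128 matched RefSeq (GRCh38.p14) by Entrez number. Each gene kept its brightest probe set by mean, which left 18404 genes. All arrays entered 1 model of 4 group means in limma 3.58.1 (R 4.3.3; lmFit, contrasts.fit, eBayes; 8 residual and 3.98 prior degrees of freedom) with 5 two-sided contrasts, each adjusted by Benjamini-Hochberg over all genes and called at 0.05. The fit was also tested on simulated data with 50 genes changed at each size. A change of 0.25 was called for 54% in the run for A375 and 36% in the run for A2058. For 0.5 these were 86% and 96%. Before the changes were added, both runs drew all arrays of a gene from the same mean and pooled spread. Their percentages therefore do not compare the lines. Changes of 1 and 2 were called for 100%, with 11 and 7 false calls. Values were drawn independently, and far fewer genes changed there than in these data.

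The 10 genes, the lists and the tests were chosen with earlier results of these data known. Named are all 10 genes; up to 3 called genes per direction and comparison from the lists of other ETS genes and of regulators; up to 2 ERK output genes per line; and the 3 genes nearest to each PEA3 gene. COP1, ERG, ELF5 and the cell type markers were named outside this rule, after their values were seen. So were the drug responses of DDB1, and those of CUL4A, DET1 and MAPK3 in A2058. Alternatives were a replicate block, quantile normalization, subtraction of array medians, averaged probe sets, a filter on dim genes, a variance trend, array weights, fits of the compared groups alone and leaving out each array. For genes outside the 10 these were added after the data were seen.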

Additional observations from a re-analysis of the deposited data

Results flagged for a closer look

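For 7 of the 9 measured ETS genes the response to vemurafenib differed between the lines in a test of the difference itself, which called 29.5% of all genes. Among the 9202 brighter genes fitted alone, that test called 4570. The log2 difference of the responses, A375 minus A2058, was 1.15 for ETV1, 0.46 for ETV4 and 0.61 for ETV5, all of which fell in both lines. It was -0.46 for ETS2 and -0.94 for ELK3, which also fell in both. For ETS1 it was 0.26 and for ELF1 0.81, and these rose in both. Groups of 3 arrays are too small for a test of single outlying arrays, and none was made. The estimated array weight was 0.149 for A375 vemurafenib replicate 1 and 0.672 to 2.07 for the other arrays. Without that array 7785 genes were called in A375, where 6816 were called with it.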

How the results depend on the processing

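For the 9 measured ETS genes, 879 of the values recomputed under alternatives kept their direction and their side of the threshold, 3 lost a call, 7 gained one and 2 changed sign. The sign changes were both of ELF1 between the treated lines, which was not called (-0.027 to 0.11 without 1 array). The ETS1 gap between responses lost its call with array medians subtracted (0.26, adjusted p = 0.0625) and without A375 DMSO replicate 2 or A2058 vemurafenib replicate 2. ELK4 gained the call for its gap with quantile normalization (0.31, adjusted p = 0.00519), with dim genes left out (0.25, 0.0366) and with array weights (0.33, 0.00041), and ELK1 in A375 with array medians subtracted (-0.18, 0.0353) and with array weights (-0.25, 0.000795). Both also passed without A375 vemurafenib replicate 1. The causes were not tested.

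No count of called genes moved by 1.5 times under any alternative run. The share called did rise when dim genes were left out, since only 9202 of the 18404 genes were then tested. Of these, 5581 were called in A375, 4488 in A2058 and 4570 for the gap. Without 1 array, 6044 to 7785 genes were called in A375, 4172 to 5952 in A2058 and 4892 to 6638 for the gap, and 8 or 9, 8, and 6 to 8 of the ETS genes. With the replicate number as a block these were 6431, 4522 and 4934 genes, and 8, 8 and 7 ETS genes. Of the calls given for other genes, the block ended those of CIC in A375 (adjusted p = 0.109) and of the SRF gap (0.0606). In A2058 it ended those of ATXN1 (0.0616), DAXX (0.0862), CUL4A (0.0586) and MAPK3 (0.0718). The labels do not say whether the replicate numbers pair the arrays. Deviations of same-numbered arrays correlated at -0.197, 0.1 and -0.128 in A375 and 0.025, -0.027 and -0.199 in A2058. Groups this small cannot settle whether the arrays were paired. For called genes of the other lists, 108 values lost a call, 2699 did not, and DAXX in A375 changed sign when its probe sets were averaged (0.072 against -0.22). Over the alternatives no scaling moved the median of all genes by as much as 0.1.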

Other observations

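ETV6, a repressor of the family known from leukaemia fusions, has a probe set annotated with both ETV6 and INO80D, a chromatin remodelling subunit, so its signal cannot be given to 1 gene. It read 8.61, 8.61 and 8.61 with DMSO and 7.95, 8.20 and 8.16 with vemurafenib in A375, with no overlap. In A2058 it read 8.35, 8.39 and 8.45 with DMSO and 8.40, 8.42 and 8.48 with vemurafenib, and the groups overlapped. In a limma fit over all 32321 probe sets the difference was -0.51 ± 0.060 in A375 (adjusted p = 5.4e-05) and 0.038 ± 0.060 in A2058 (95% interval -0.094 to 0.17, adjusted p = 0.823), and the gap between the responses was -0.54 ± 0.084 (adjusted p = 0.000724).

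Some of the other ETS genes with roles in blood, endothelium or epithelium lay at low values on these arrays. ERG, an endothelial and blood factor, had group means of 4.23 to 4.32 and ELF5, a mammary and placental factor, 4.44 to 4.54. Neither was called in any of the 5 comparisons.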
